A study of Mus musculus with 38 samples.

Results

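The genes described here carry pyruvate into the mitochondrion and turn the tricarboxylic acid (TCA) cycle in the mouse left ventricle. They are 29 named genes of the 29564 in the deposited tables, chosen by symbol from their enzymatic role. RNA was sequenced from left ventricle tissue of 38 wild-type mice, labelled C57BL6, with 1 library per mouse. The non_failing group held 8 healthy mice, labelled as given vehicle. The other mice had a model of heart failure with preserved ejection fraction (HFpEF): 8 received vehicle (HFpEF+Veh), 11 received TYA-018, which inhibits the deacetylase HDAC6 (HFpEF+TYA-018), and 11 received empagliflozin, which inhibits the glucose transporter SGLT2 (HFpEF+SGLT2i). HFpEF was induced by feeding a high-fat diet together with L-NAME, an inhibitor of nitric oxide synthases. All 3 HFpEF groups had both, and the drugs or vehicle were given by mouth after disease was established, so the non_failing mice differ from HFpEF+Veh in diet and L-NAME at the same time. The labels give no age. Libraries are named by the mouse number (V2523).

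Pyruvate enters the mitochondrial matrix through a carrier made of Mpc1 and Mpc2. There the pyruvate dehydrogenase complex turns it into acetyl-CoA, and pyruvate carboxylase can turn it into oxaloacetate instead. Citrate synthase joins acetyl-CoA to oxaloacetate, and the cycle then releases carbon dioxide and loads electrons onto NADH and, at succinate dehydrogenase, onto the quinone pool of the respiratory chain. The heart runs this cycle at a high rate, mostly on acetyl-CoA from fatty acids, and the level of a transcript does not measure the flux through its enzyme.

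Of the 29 genes, 28 passed the filter on low counts and were tested. No single one of these 28 passed the test when HFpEF+Veh was compared with non_failing, or when either drug group was compared with HFpEF+Veh. As a group they lay lower in HFpEF+Veh than in non_failing (26 of 28, median log2 fold change -0.20) and higher in both drug groups than in HFpEF+Veh (28 of 28 in each, medians 0.23 and 0.20). All of these comparisons use the same HFpEF+Veh libraries, so their opposite directions are not independent of each other. The call that was made went to Me1, cytosolic malic enzyme, which was higher in HFpEF+SGLT2i than in non_failing.

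Libraries held 21500000 to 59300000 counts (rounded). Mitochondrially encoded transcripts took 28.5% to 39.5% of the counts. The tissue label fitted its markers, with 7 cardiomyocyte markers summing to 15300 to 29300 TPM (a level corrected for transcript length and library size) in every library. Library V2523 of HFpEF+Veh stood apart in liver transcripts: 9 hepatocyte markers summed to 1173 TPM there, 15.2 to 39.1 TPM in the other 7 HFpEF+Veh libraries, 30.4 to 252 TPM in non_failing and 7.59 to 32.5 TPM in the drug groups. The medians, directions and counts of the 28 genes that rest on HFpEF+Veh are therefore also given without V2523. Marker counts are from all 38 libraries, and so are fold changes of single genes unless stated.

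Summed over the 29 genes, the level was 6526 ± 854 TPM (SD) in the 8 libraries of non_failing, 6191 ± 879 TPM in the 8 of HFpEF+Veh, 6524 ± 866 TPM in the 11 of HFpEF+TYA-018 and 6557 ± 1284 TPM in the 11 of HFpEF+SGLT2i. The group ranges overlapped widely, and the differences between the group means were smaller than 1 SD within any group. Without V2523 the HFpEF+Veh mean was 6005 ± 761 TPM (n = 7). Within the empagliflozin group, V2571 and V2572 had the lowest sums of all 38 libraries, 4318 and 4436 TPM, and V2562 had the highest, 8316 TPM.

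**Figure D1:**
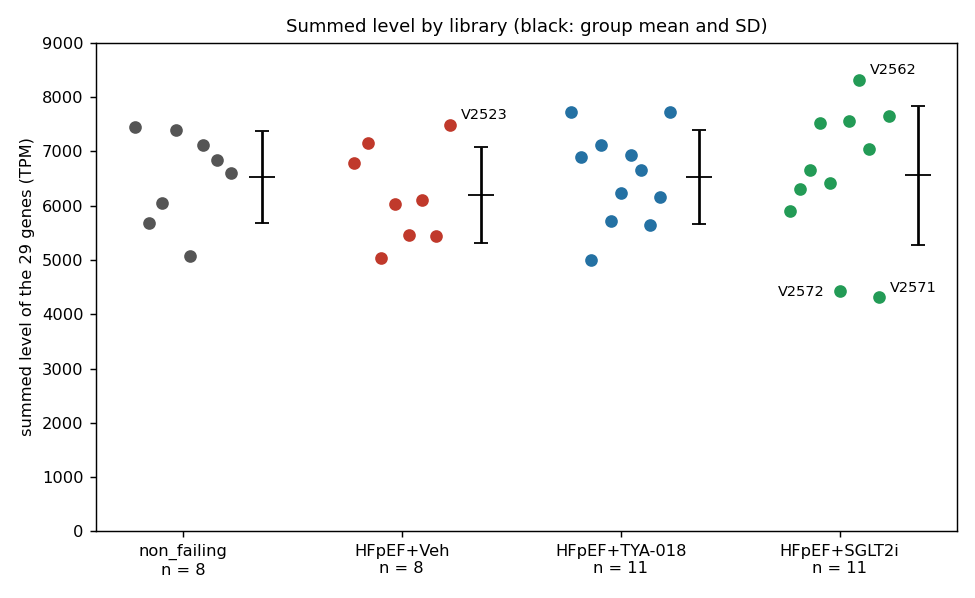
Summed level of the 29 genes in each library (y axis, TPM), by group (x axis), with the group mean and SD in black. The 4 groups overlap, V2571 and V2572 lie lowest at 4318 and 4436 TPM and V2562 highest at 8316 TPM.

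The genes spanned a wide range of levels, here as the mean TPM over the 38 libraries. Idh2, the mitochondrial NADP-dependent isocitrate dehydrogenase, was the most abundant at 821 TPM. It was followed by the mitochondrial and cytosolic malate dehydrogenases Mdh2 (654 TPM) and Mdh1 (591 TPM), the iron-sulfur subunit of succinate dehydrogenase Sdhb (535 TPM) and Mpc1 (445 TPM). These leading 5 genes thus came from the carrier, the isocitrate, succinate and malate steps, and none from the pyruvate dehydrogenase complex.

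Within complexes the subunits were not equally abundant. The pyruvate carrier subunits lay at 445 TPM (Mpc1) and 316 TPM (Mpc2). In the pyruvate dehydrogenase complex the decarboxylase subunits Pdhb and Pdha1 lay at 212 and 149 TPM, dihydrolipoamide dehydrogenase Dld, which other oxoacid dehydrogenases share, at 69.2 TPM, the acetyltransferase Dlat at 42.1 TPM and the anchoring subunit Pdhx at 24.0 TPM. The core and anchoring genes of this complex were therefore read at a lower level than its decarboxylase.

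Citrate synthase Cs lay at 171 TPM. The NAD-dependent isocitrate dehydrogenase was read at 288 TPM for Idh3b, 251 TPM for Idh3g and 68.5 TPM for Idh3a, its catalytic subunit. The oxoglutarate dehydrogenase complex was read at 235 TPM for Ogdh and 24.6 TPM for its succinyltransferase Dlst. In both complexes the least abundant of the genes named was a catalytic one.

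Succinyl-CoA ligase pairs the shared subunit Suclg1 (188 TPM) with Sucla2 (127 TPM), which makes the ADP-forming enzyme, or with Suclg2, which makes the GDP-forming enzyme. Suclg2 was listed at 0 in 36 of 38 libraries and had 2 values above 0, 0.0354 TPM in V2504 and 0.0417 TPM in V2551. It did not pass the filter and has no fold change here. Of the 31-base stretches of its annotated transcripts, 20.6% also occur in transcripts of other genes, so most of its sequence could be told from copies. Suclg2 is known to be expressed in many tissues, the heart included, so a listed 0 here need not mean that the transcript was absent. The cause of the zeros was not tested.

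The 4 subunits of succinate dehydrogenase lay at 535 TPM (Sdhb), 226 TPM (Sdha), 189 TPM (Sdhc) and 188 TPM (Sdhd), and fumarase Fh1 at 247 TPM. The aspartate aminotransferases, which with the malate dehydrogenases shuttle reducing equivalents into the mitochondrion, lay at 163 TPM for the cytosolic Got1 and 171 TPM for the mitochondrial Got2. The malic enzymes, which turn malate into pyruvate while making NADPH, were low, 34.8 TPM for mitochondrial Me3 and 30.1 TPM for cytosolic Me1. Pyruvate carboxylase Pcx was the lowest of the genes tested, at 2.72 TPM.

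Promoter windows from RefSeq (GRCm38.p6, 250 bases before to 50 bases after each annotated start) were matched for 27 of the 29 genes, with 35 windows in all. Idh3a and Sdhc had no entry. They were searched on both strands for 3 motifs of factors known to act on mitochondrial genes. The NRF1 core GCATGCGC was found in 3 of the 35 windows (8.57%), against 2.71% of all 32851 promoter windows. Of these 3, 2 are overlapping windows of Ogdh that hold the same site, so the motif was in 2 of 27 genes (7.41%). The estrogen-related receptor element TCAAGGTCA was found in 1 window (2.86%, against 0.423%), and the ETS element ACCGGAAGT, bound by GABPA among other factors, in 1 window (2.86%, against 1.10%). Most of these genes thus held none of the 3 exact motifs in these windows, and a match is a description of letters, not of binding. The 4 genes with a match are shown because they carry the only sequence features found, with the motif in capitals and each read on the gene's own strand:
Sdhb, NRF1 core, chr4:140961206-140961234 (+): aagcccagtggGCATGCGCcctacgggcc
Ogdh, NRF1 core reversed, chr11:6292532-6292560 (+): ctaggtgttgtGCGCATGCgtaactcaac
Dlst, ETS element reversed, chr12:85110822-85110851 (+): cggccggtctcACTTCCGGTtgctgccggg
Sdhd, estrogen-related receptor element reversed, chr9:50603800-50603824 (-): gggttgtagagTGACCTTGAgccct
The motif began 54 bases before the RefSeq start in Sdhb and 15 and 36 bases before 2 annotated starts of Ogdh, lay at the start in Dlst and 36 bases after it in Sdhd. The log2 fold changes of HFpEF+Veh against non_failing, described next, were -0.20 for Sdhb, -0.06 for Ogdh, -0.29 for Dlst and -0.14 for Sdhd.

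The comparison of HFpEF+Veh with non_failing asks how diet and L-NAME moved these genes. None of the 28 passed the quasi-likelihood test of edgeR with Benjamini-Hochberg adjustment at an adjusted p under 0.05 (smallest adjusted p = 0.19, Sdhb), where 3.15% of all 13765 genes tested did. DESeq2 and limma also called 0. Their log2 fold changes lay below 0 for 26 of 28 genes, where 47.7% of all genes did, with a median of -0.20 (all genes 0.01). At an unadjusted p under 0.05, 3 of the 28 were lower, where 7.41% of all genes were, and 1, Me1, was higher, where 8.46% were. The count of lower genes turned on the scaling and on single libraries. It was 0 with library size alone (3.13% of all genes) and 1 with limma on TPM (3.75%). It was 7 without V2523 (9.83% of all genes), which added Idh3b, Fh1, Mdh1 and Got2, and Me1 then no longer passed. Over all libraries left out in turn it ran from 1 (without V2508, V2526 or V2530) to 8 (without V2510).

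The 3 genes lower at that level were Mpc1, Pdhb and Sdhb. Mpc1 ranged from 403 to 585 TPM (median 486) in non_failing and from 309 to 538 TPM (median 373) in HFpEF+Veh. Its log2 fold change was -0.34 ± 0.16 (SE). Pdhb ranged from 192 to 279 TPM (median 227) and from 149 to 270 TPM (median 178), with -0.31 ± 0.14. The ranges overlapped for both genes, and V2521, V2523 and V2532 were the HFpEF+Veh libraries that reached the non_failing levels. For Sdhb, which ranged from 445 to 641 TPM in non_failing and from 476 to 557 TPM in HFpEF+Veh, the log2 fold change was -0.20 ± 0.08, and 8 of 8 HFpEF+Veh libraries lay below the non_failing mean on the normalised scale.

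By role, the 5 genes of the pyruvate dehydrogenase complex lay between -0.31 (Pdhb) and -0.19 (Dld), with Pdhx at -0.22, Pdha1 at -0.20 and Dlat at -0.20. The 7 genes from citrate synthase to the oxoglutarate dehydrogenase complex lay between -0.35 (Idh3b) and -0.06 (Ogdh). The 4 succinate dehydrogenase genes lay between -0.23 (Sdha) and -0.05 (Sdhc), Fh1 at -0.24, Mdh1 at -0.35 and Mdh2 at -0.12, Got1 at -0.23 and Got2 at -0.22. The median standard error of these values was 0.15, and apart from Mpc1, Pdhb, Sdhb and Me1 the 95% interval of each gene held 0. The exceptions to the lower direction were Me1, at 0.41 ± 0.18 (adjusted p = 0.24), and Suclg1, at 0.05 ± 0.10.

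The direction depended in part on the scaling. With library size alone in place of TMM factors, 23 of 28 lay below 0 (median -0.13, all genes 0.08), and by mean TPM 22 of 28 were lower in HFpEF+Veh. Mpc2 was one that differed: it was 311 ± 28.2 TPM (n = 8) against 297 ± 27.4 TPM (n = 8) in non_failing, and its TMM-scaled log2 fold change was -0.05 ± 0.11. Without V2523 the median was -0.25, with 26 of 28 below 0 and 0 called. Beside this, 7 of 7 cardiomyocyte markers lay below 0 in HFpEF+Veh, 3 of them called, with summed levels of 20080 to 29300 TPM in non_failing and 19860 to 23600 TPM in HFpEF+Veh. Of 6 fibroblast markers 5 lay above 0 and 2 were called higher, with sums of 166 to 275 TPM in non_failing and 245 to 582 TPM in HFpEF+Veh. Endothelial markers (4 of 5 above 0) summed to 1344 to 2269 TPM and 1816 to 3292 TPM, and macrophage markers (5 of 5 above 0) to 17.9 to 30.9 TPM and 25.4 to 40.6 TPM, with 0 called in either list. Of the skeletal muscle list 2 were called higher, Acta1, which the heart also makes (32.7 to 85.1 TPM in non_failing, 129 to 222 TPM in HFpEF+Veh), and the trace-level Tnnt3 (0.0815 to 1.04 TPM and 0.193 to 16.9 TPM). Myh1 and Myh4 had medians near 0. Myh4 was listed at 0 in 7 of 8 HFpEF+Veh libraries and reached 7.84 TPM in the other, against at most 0.1685 TPM in non_failing. Of the pericyte and smooth muscle list 1 was called lower, Rgs5 (medians 151 and 127 TPM). In tissue RNA, fewer cells of a type and less RNA per cell cannot be told apart, and the part of the markers in the result was not tested.

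TYA-018 was compared with vehicle in HFpEF mice. The log2 fold changes lay above 0 for 28 of 28 genes, where 48.2% of all genes did, with a median of 0.23 (all genes -0.01). None was called (smallest adjusted p = 0.082, Idh3a, edgeR), where 1.93% of all genes were, and DESeq2 and limma also called 0. At an unadjusted p under 0.05, 10 of 28 were higher, where 8.73% of all genes were. These 10 were Mpc1, Mpc2, Pdhb, Cs, Idh3a, Idh3g, Sdhb, Mdh2, Got1 and Got2, from the carrier, the complex, the cycle and the shuttle. The count was 0 with library size alone, where 1.29% of all genes were higher and 25% lower, and 2 with limma on TPM (1.77% higher). It was 17 without V2523 (11% of all genes) and 17 without V2532 (9.31%), and with any other single library left out it ran from 5 (without V2526, V2527, V2528, V2530, V2546, V2547 or V2548) to 15 (without V2550).

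Got1 had the largest difference. Its level ran from 116 to 187 TPM (median 132) in HFpEF+Veh and from 120 to 238.9 TPM (median 168) in HFpEF+TYA-018. The log2 fold change was 0.42 ± 0.15 (adjusted p = 0.13), with 10 of 11 treated libraries above the vehicle mean and overlapping ranges. Idh3a ran from 50.6 to 78.9 TPM (median 62.7) in HFpEF+Veh and from 59.6 to 90.9 TPM (median 71.6) in HFpEF+TYA-018, and its log2 fold change was 0.35 ± 0.11, with 11 of 11 treated libraries above the vehicle mean. Sdhb stood at 0.21 ± 0.07 (adjusted p = 0.12).

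The remaining genes of the 10 lay between 0.21 (Got2) and 0.31 (Mpc1). Those with the smallest differences were Dlst at 0.01 ± 0.29, Me1 at 0.06 ± 0.17 and Me3 at 0.11 ± 0.13. The others of the pyruvate dehydrogenase complex lay from 0.19 (Pdha1) to 0.30 (Dlat), and Mdh1 was at 0.34 ± 0.17. The malic enzymes were thus the role with the lowest median, 0.08, and the aspartate aminotransferases the one with the highest, 0.31, each from 2 genes.

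The scaling mattered more here than in the other comparisons with vehicle. With library size alone the median of all genes moved to -0.14 and that of the 28 to 0.10, with 25 of 28 above 0. By mean TPM, 23 of 28 were higher with TYA-018. Relative to all genes the 28 therefore stayed above the median under both scalings. Without V2523 the median was 0.28, 28 of 28 were above 0 and 0 were called. Of 7 cardiomyocyte markers 6 lay above 0 with TYA-018 and 0 were called, with sums of 19900 to 25090 TPM. Of 6 fibroblast markers 0 lay above 0 and 0 were called, with a sum of 254 ± 40.7 TPM (n = 11) against 336 ± 111 TPM (n = 8) with vehicle. Endothelial and macrophage markers lay above 0 for 1 of 5 each and erythrocyte markers for 0 of 3, with 0 called. The part of these markers in the result was not tested.

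Empagliflozin was compared with the same vehicle libraries, so the 2 drug comparisons share their controls and are not independent of each other. The log2 fold changes again lay above 0 for 28 of 28 genes, where 51.6% of all genes did, with a median of 0.20 (all genes 0.01). None was called (smallest adjusted p = 0.37, Got1, edgeR), where 0.85% of all genes were, and DESeq2 and limma also called 0. At an unadjusted p under 0.05, 4 of 28 were higher, where 4.14% of all genes were: Idh3a, Suclg1, Mdh2 and Got1. The count was 0 with library size alone, where 1.1% of all genes were higher and 12.4% lower, and 0 with limma on TPM (1.6% higher). It was 10 without V2523 (5.38% of all genes), 10 without V2532 (6.39%), 13 without V2572 (5.64%) and 14 without V2571 (6.14%), and fell to 0 without V2530 or V2564. Without both V2571 and V2572, a choice made after seeing the data, it was 26 (9.33%), and the median rose to 0.32.

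Got1 was again the largest, at 0.36 ± 0.15, with levels from 94.1 to 232 TPM (median 167) in HFpEF+SGLT2i. The lowest empagliflozin values were those of V2572 and V2571, 94.1 and 124 TPM, and 9 of 11 libraries lay above the vehicle mean on the normalised scale. Mdh2 stood at 0.22 ± 0.10, Idh3a at 0.23 ± 0.11 and Suclg1 at 0.19 ± 0.09. The smallest differences were those of Pcx, 0.09 ± 0.46, Got2, 0.12 ± 0.10, and Idh2, 0.13 ± 0.09.

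The pyruvate dehydrogenase genes lay between 0.18 (Dld) and 0.28 (Dlat) under empagliflozin, and the carrier genes at 0.14 (Mpc2) and 0.17 (Mpc1). The succinate dehydrogenase genes lay between 0.13 (Sdhb) and 0.26 (Sdha), Sucla2 at 0.24, Fh1 at 0.21 and Mdh1 at 0.32. With library size alone 28 of 28 remained above 0 (median 0.12, all genes -0.07), and by mean TPM 26 of 28 were higher. Without V2523 the median was 0.25, with 28 of 28 above 0 and 0 called. Hepatocyte markers moved in both drug comparisons, 9 of 9 lower under each drug with V2523 among the vehicle libraries. The values of the 28 genes without V2523 are those just given. The skeletal muscle marker Tnnt3 was also called lower under each drug. Its log2 fold change was -2.985 with TYA-018 (adjusted p = 0.0040, edgeR) and -2.609 with empagliflozin (adjusted p = 0.018). With empagliflozin 6 of 7 cardiomyocyte markers lay above 0 (sums of 15300 to 23370 TPM) and 1 of 6 fibroblast markers (sum 255 ± 28.4 TPM, n = 11), as did 4 of 5 endothelial, 1 of 5 macrophage and 0 of 3 erythrocyte markers, with 0 called in any of these lists. The erythrocyte markers, which are hemoglobin and other red cell genes, lay above 0 for 3 of 3 in HFpEF+Veh against non_failing, with 0 called. They summed to 3209 ± 807 TPM in non_failing (n = 8), 8071 ± 7209 TPM with vehicle (n = 8), 6820 ± 3420 TPM with TYA-018 (n = 11) and 4122 ± 1707 TPM with empagliflozin (n = 11). Their part in the result was not tested.

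**Figure D2:**
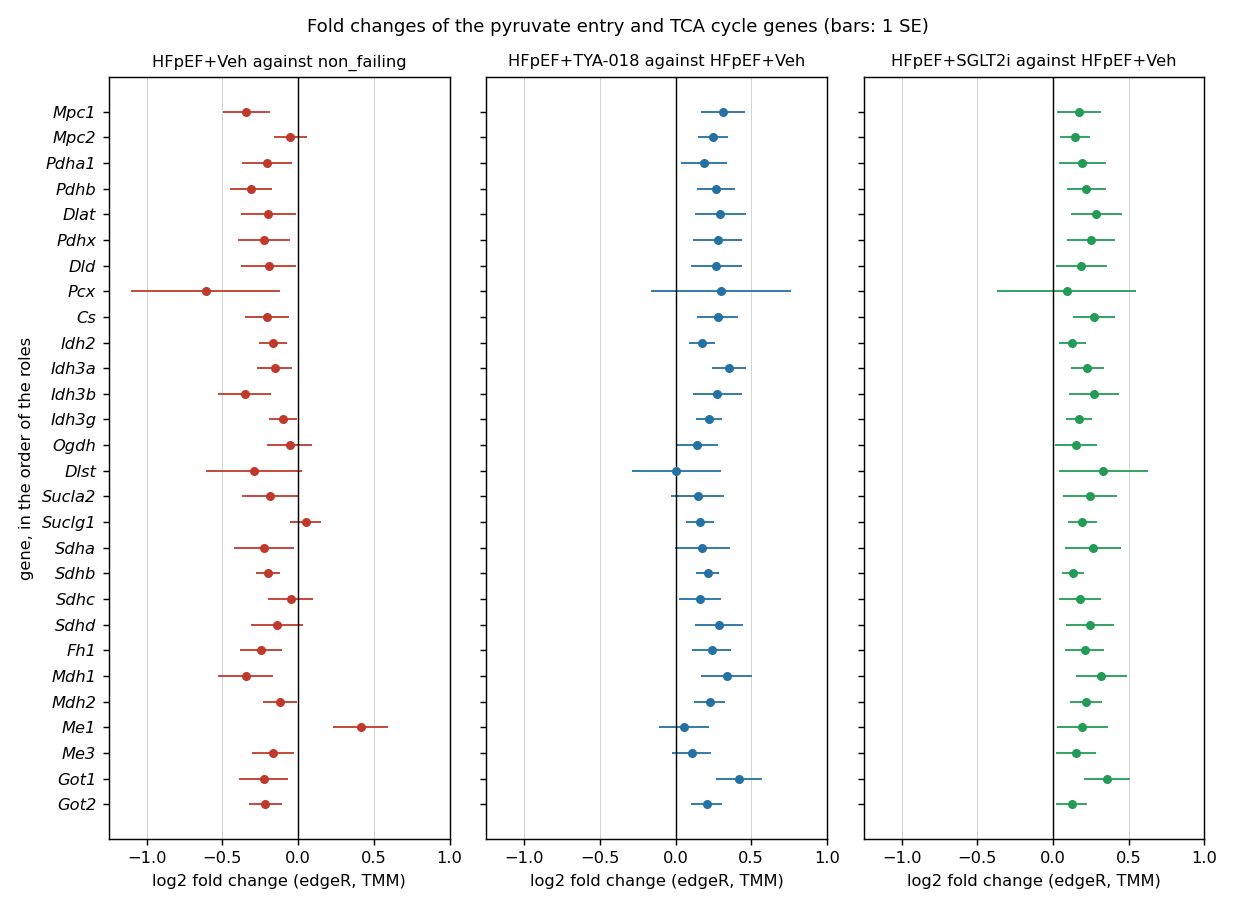
Log2 fold change (x axis) of each of the 28 genes tested (y axis, in the order of their roles) in 3 comparisons, with bars of 1 SE. In HFpEF+Veh against non_failing 26 of 28 points lie below 0, and in each drug comparison 28 of 28 lie above 0, by a median of 0.23 for TYA-018 and 0.20 for empagliflozin; Pcx and Dlst have the widest bars.

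Cs, the enzyme often used as a measure of mitochondrial content, showed the size of these differences in single libraries. It ran from 118 to 218 TPM (median 178) in non_failing, from 117 to 209 TPM (median 151) in HFpEF+Veh, from 128 to 228 TPM (median 168) in HFpEF+TYA-018 and from 108 to 248 TPM (median 180) in HFpEF+SGLT2i. The 4 ranges almost coincided. The log2 fold changes were -0.21 ± 0.15 for HFpEF+Veh against non_failing, 0.28 ± 0.14 for TYA-018 and 0.27 ± 0.14 for empagliflozin against vehicle.

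The drug groups were then compared with each other. None of the 28 genes differed at an adjusted or an unadjusted p under 0.05, and DESeq2 and limma also called 0. Across all genes edgeR called 0% at an adjusted p under 0.05, where 13.2% passed an unadjusted p under 0.05 and DESeq2 called 185 genes. The log2 fold changes of HFpEF+TYA-018 against HFpEF+SGLT2i ran from -0.33 (Dlst) to 0.21 (Pcx), with a median of 0.02. The 95% confidence interval of a single gene reached a median of 0.26 to each side, so for a typical gene of the 28 smaller differences were not detectable here.

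The intervals were narrowest for Sdhb, -0.06 to 0.22 around 0.08, and for Idh3g, -0.11 to 0.21 around 0.05. They were widest for Pcx, -0.64 to 1.06, and Dlst, -0.87 to 0.22. Mpc1 was at 0.14, Mpc2 at 0.10 and Idh3a at 0.13, and Me1 at -0.14 and Sucla2 at -0.10. The direction of the median was not stable: with library size alone it was -0.02, and without V2571 and V2572 it was -0.09, with 24 of 28 below 0.

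Against non_failing, the drug groups lay close to 0. The median was 0.03 for HFpEF+TYA-018 (16 of 28 above 0) and 0.04 for HFpEF+SGLT2i (16 of 28 above 0). These comparisons share the non_failing libraries. The sign of neither median was stable. With 1 library left out, that of HFpEF+TYA-018 ran from -0.02 (without V2510) to 0.08 (without V2550). That of HFpEF+SGLT2i ran from -0.06 (without V2562) to 0.10 (without V2571), and lay below 0 also without V2510 or V2564. Without both V2571 and V2572 it was 0.16, with 25 of 28 above 0. In HFpEF+TYA-018 no gene of the 28 was called, where 7.39% of all genes were and 4% were called higher. At an unadjusted p under 0.05, 2 genes, Me1 and Suclg1, were higher, where 11.1% of all genes were. DESeq2 and limma also called 0. In HFpEF+SGLT2i 1 gene was called, Me1, where 6.45% of all genes were called and 3.46% were called higher. Of 7 cardiomyocyte markers, 1 lay above 0 with TYA-018 (0 called) and 2 with empagliflozin (Tnnt2, Tnni3 and Myl2 called lower). Among fibroblast markers Lum was called higher with TYA-018, and with empagliflozin Pdgfra higher and Tcf21 lower. With TYA-018 endothelial Fabp4, smooth muscle Acta2 and erythrocyte Hbb-bs were called higher and Rgs5 lower. Acta1 was called higher with both. The part of these markers was not tested.

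Me1, cytosolic NADP-dependent malic enzyme, a source of NADPH for lipid synthesis, is on the reverse strand of chromosome 9 (86581371 to 86695953, GRCm38). Its level was lowest in non_failing, from 16.1 to 29.3 TPM with a median of 22.1. It ran from 22.0 to 46.6 TPM (median 28.3) in HFpEF+Veh, from 16.8 to 37.6 TPM (median 30.5) in HFpEF+TYA-018 and from 17.6 to 52.2 TPM (median 30.7) in HFpEF+SGLT2i. Ranges overlapped between all groups. The lowest HFpEF values were V2550 of HFpEF+TYA-018 (16.8 TPM) and V2572 of HFpEF+SGLT2i (17.6 TPM), and the highest was V2562 of HFpEF+SGLT2i (52.2 TPM).

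The mean of Me1 was 22.7 ± 5.54 TPM (SD) over the 8 non_failing libraries, 31.7 ± 10.5 TPM over the 8 of HFpEF+Veh, 30.7 ± 5.67 TPM over the 11 of HFpEF+TYA-018 and 33.8 ± 10.5 TPM over the 11 of HFpEF+SGLT2i. Against non_failing the log2 fold change was 0.41 ± 0.18 in HFpEF+Veh (adjusted p = 0.24, edgeR, 7 of 8 libraries above the non_failing mean), 0.47 ± 0.17 in HFpEF+TYA-018 (adjusted p = 0.081, 10 of 11) and 0.61 ± 0.17 in HFpEF+SGLT2i (adjusted p = 0.023, 9 of 11). Against HFpEF+Veh, TYA-018 differed by 0.06 ± 0.17 and empagliflozin by 0.19 ± 0.17, so the 3 HFpEF groups were not told apart for Me1. Without V2507, V2509 or V2510 of non_failing in turn the adjusted p of the call rose to 0.059, 0.056 and 0.051. Without V2523, the HFpEF+Veh value was 0.33 (adjusted p = 0.33).

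Me1 is also a gene of liver and fat, and markers of both were read beside it. White adipocyte markers summed to at most 0.755 TPM in any library. Of 4 brown adipocyte markers 2 were tested and 1, Cidea, was called higher in each HFpEF group against non_failing (13.2 to 18.7 TPM in non_failing, 20.4 to 35.5 TPM in the HFpEF groups), whereas Ucp1, which defines that cell, did not exceed 0.116 TPM in any library. Of 9 hepatocyte markers 9 lay below 0 in each drug group against non_failing, 7 of them called, while Me1 lay above 0. In HFpEF+Veh against non_failing, with V2523 among the libraries, 8 of the 9 lay above 0 and 0 were called. Me1 lay above 0 too. The hepatocyte marker sum was 1173 TPM in V2523 and 15.2 to 39.1 TPM in the other HFpEF+Veh libraries, against 30.4 to 252 TPM in non_failing. Without V2523 Me1 lay above 0, at a log2 fold change of 0.33. The part of these markers in the Me1 result was not tested. Of the 31-base stretches of Me1 transcripts 30.0% occur in other genes' transcripts, 28.6% in Gm7049, so reads from those stretches cannot be told apart.

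Suclg1, the subunit common to both succinyl-CoA ligases, was the other gene above 0 in all 3 HFpEF groups against non_failing with an unadjusted p under 0.05 in 2 of them. It ran from 142 to 197 TPM (median 174) in non_failing, from 156 to 228 TPM (median 195) in HFpEF+Veh, from 148 to 233 TPM (median 179) in HFpEF+TYA-018 and from 140 to 248 TPM (median 214) in HFpEF+SGLT2i. The groups overlapped, and the empagliflozin values were the most spread. Its log2 fold change against non_failing was 0.21 ± 0.09 in HFpEF+TYA-018 (adjusted p = 0.17, edgeR) and 0.24 ± 0.09 in HFpEF+SGLT2i (adjusted p = 0.12). Its partner Sucla2 stood at -0.04 and 0.06.

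**Figure D3:**
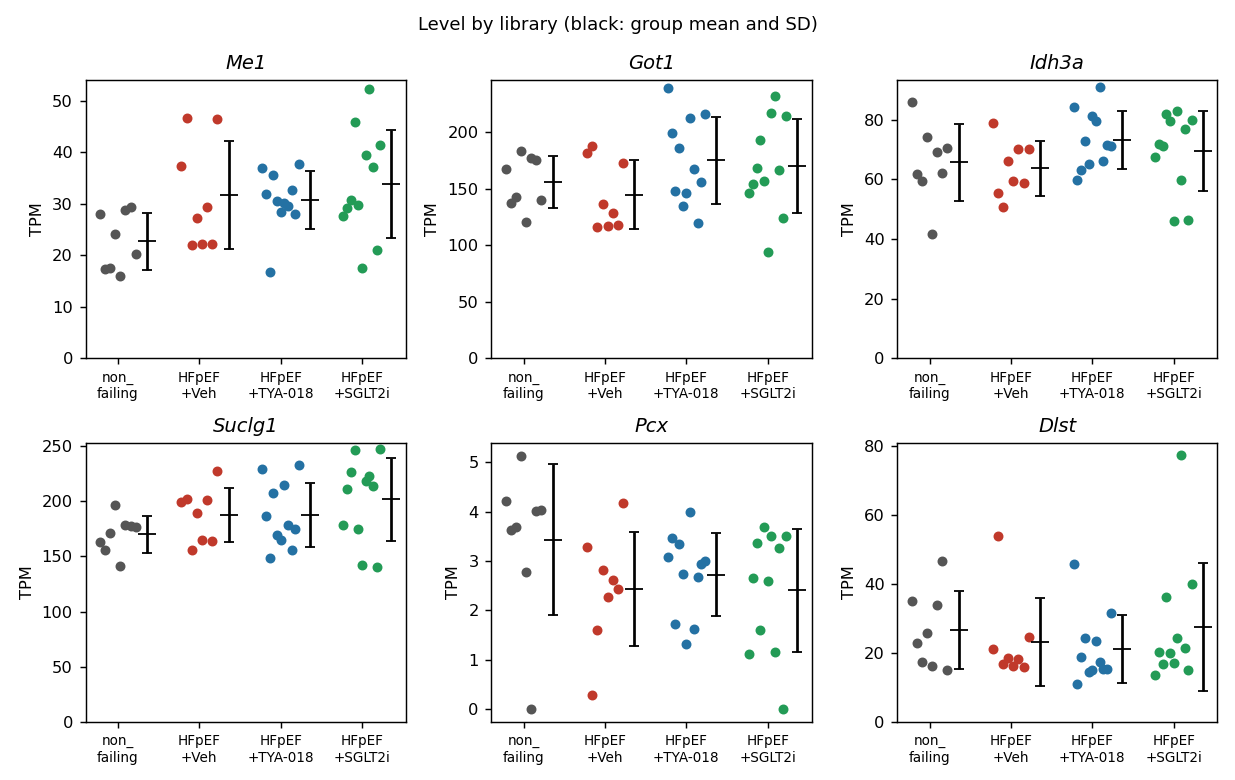
Level of 6 genes in each library (y axes, TPM), by group (x axes), with group mean and SD in black. Me1 is lowest in non_failing (median 22.1 TPM) and Got1 lowest in HFpEF+Veh (median 132 TPM); Pcx has 0 TPM in V2504 and V2571, and Dlst reaches 77.5 TPM in V2562.

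Pcx and Dlst varied most within groups. Pcx ran from 2.77 to 5.13 TPM in 7 non_failing libraries and was listed at 0 in V2504. In HFpEF+Veh it ran from 0.293 (V2532) to 4.18 TPM with a median of 2.52, in HFpEF+TYA-018 from 1.31 to 4.00 TPM (median 2.95) and in HFpEF+SGLT2i from 0 (V2571) to 3.70 TPM (median 2.66). The median was highest in non_failing, 3.85 TPM. The log2 fold change of HFpEF+Veh against non_failing was -0.61 ± 0.49, the lowest of the 28, with a 95% interval of -1.61 to 0.39, and only 2 of 8 HFpEF+Veh libraries lay below the non_failing mean on the log scale, which V2504 pulls down.

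Dlst, the succinyltransferase of the oxoglutarate dehydrogenase complex, ran from 15.0 to 46.8 TPM (median 24.3) in non_failing and from 15.8 to 24.7 TPM in 7 HFpEF+Veh libraries, with V2532 at 53.9 TPM. It ran from 11.1 to 45.7 TPM (median 17.3) in HFpEF+TYA-018 and from 13.5 to 77.5 TPM (median 20.4) in HFpEF+SGLT2i. The high values lay in all 4 groups. Its coefficient of variation was 42.1% to 67.7% within groups, against 15.9% to 25.9% for Ogdh of the same complex, and its fold changes had standard errors of 0.27 to 0.32.

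Other genes were tighter. The coefficient of variation within groups was 5.03% to 12.1% for Sdhb, 6.31% to 14.3% for Idh2, 8.40% to 13.98% for Idh3g and 6.61% to 13.3% for Fh1. Those of the pyruvate dehydrogenase complex were wider, from 13.0% (Pdhb in non_failing) to 36.2% (Dlat in HFpEF+SGLT2i). The empagliflozin group had the largest coefficient for Idh2, Fh1 and the 5 genes of that complex, and non_failing for Sdhb and Idh3g.

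Much of the spread within groups was shared by the genes. On the normalised scale V2571 or V2572 was the lowest of the empagliflozin group for 28 of 28 genes. V2530 was the lowest of HFpEF+Veh for 25 genes, V2510 the lowest of non_failing for 22 and V2550 the lowest of HFpEF+TYA-018 for 20. By TPM the counts were 27 for V2571 or V2572, 20 for V2530 and 18 for V2550, but in non_failing V2507 was the lowest for 21 genes and V2510 for 4, so the lowest non_failing library depended on the scaling. A library low for 1 of these genes was thus often low for most of them, so the genes are not independent readings and 28 of 28 in a direction is less than 28 separate results. The median of the genes in a library had a pooled SD within groups of 0.29 on the log2 scale.

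Some of the libraries low for these genes had a high share of mitochondrially encoded transcripts. That share was 39.0% in V2571 and 39.5% in V2572, the highest of all, 36.3% in V2530 and 36.6% in V2550, against 29.2% in V2562, where the genes were highest. On the normalised scale the libraries did not all follow this order. In V2507 (37.8%), V2559 (37.4%) and V2561 (37.2%) the mean deviation of the 28 genes from their means over all libraries was -0.06, -0.02 and 0.03 on the log2 scale. In V2510 (32.8%), V2527 (30.5%) and V2529 (30.0%) it was -0.28, -0.28 and -0.21 at moderate or low shares. By summed TPM rescaled without the mitochondrially encoded genes, V2507 was low too, at 8734 TPM the third lowest of all libraries. The libraries V2571 and V2572 also had few counts, 22100000 in V2571 and 23900000 in V2572, against 45100000 in V2562. The mean deviation was -0.89 in V2571 and -0.53 in V2572. In V2552 (21500000 counts) it was -0.11, and in V2574 (24500000 counts) 0.23. The mean of V2571 includes Pcx, listed at 0 TPM there, which lowers it. V2571 and V2572 also had the lowest cardiomyocyte marker sums of all 38 libraries, 15300 and 17650 TPM, and V2571 the highest endothelial and macrophage sums, 3830 and 44.5 TPM. The part of these in the result was not tested. By group the share was 33.3% ± 2.70 (SD, n = 11) with TYA-018, 33.1% ± 3.69 (n = 11) with empagliflozin, 31.7% ± 3.01 (n = 8) with vehicle and 32.6% ± 2.29 (n = 8) in the healthy mice, so the groups differed by less than the spread within them.

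With that share as a covariate, an alternative chosen after seeing the data, 20 of 28 genes were called higher with TYA-018 than with vehicle. Of all genes 7.26% were called higher there, and 11.4% in either direction. The median of the 28 rose from 0.23 to 0.33. In the same fit 4 genes (Mpc1, Pdhb, Idh3b and Mdh1) were called lower in HFpEF+Veh than in non_failing, where 3.55% of all genes were called lower. With empagliflozin 3 (Cs, Mdh2 and Got1) were called higher than with vehicle, where 0.901% of all genes were. The calls therefore turned on whether the share was adjusted for, while the directions of 26, 28 and 28 of 28 genes did not. What sets the share was not tested, and it may itself move with the treatments.

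**Figure D4:**
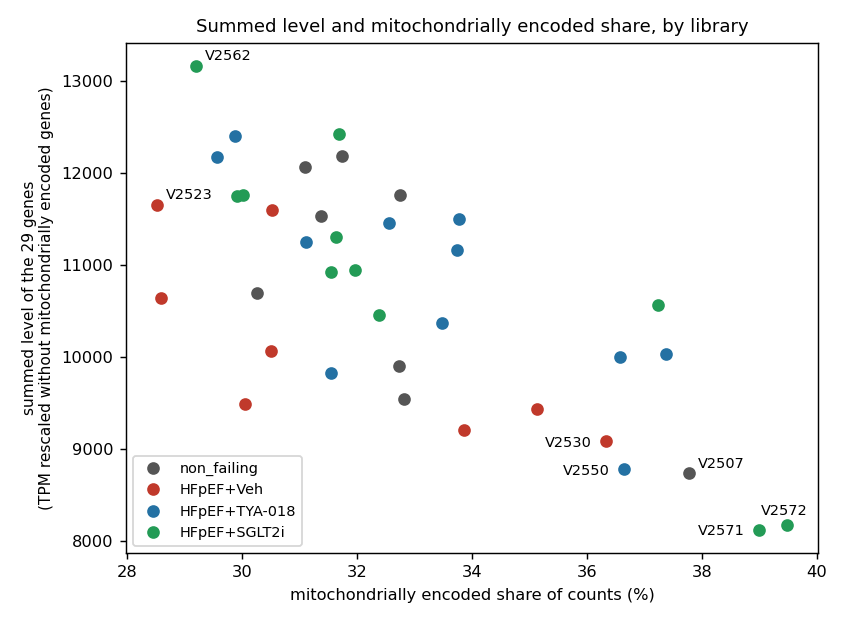
Summed level of the 29 genes, as TPM rescaled without the mitochondrially encoded genes (y axis), against the share of counts from those genes (x axis, percent), 1 point per library coloured by group. V2571 and V2572 lie at the lower right, with 39.0% and 39.5%, and V2562 at the upper left with 29.2%.

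A further 41 genes around pyruvate and the cycle, listed by function, were read in the same fit, and 40 were tested. Of the 40, 1 was called higher and 2 lower in HFpEF+Veh against non_failing, where 3.15% of all genes were called. Against vehicle 1 was called higher and 1 lower with TYA-018 (1.93% of all genes) and 2 higher and 1 lower with empagliflozin (0.85%). These counts are with V2523. Without it Glud1 was also called lower in HFpEF+Veh against non_failing (adjusted p = 0.049, edgeR, 4.49% of all genes called). Idh1 was then also called higher with TYA-018 against vehicle (adjusted p = 0.022, 1.42% of all genes called). Other changes without V2523 are given with each gene below. Between the drugs 0 were called, and 8 of the 40 had an unadjusted p under 0.05, where 13.2% of all genes did.

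The genes called against vehicle with all libraries act on the pyruvate dehydrogenase complex or use oxaloacetate. Pdp2, a phosphatase that activates the complex, ran from 1.31 to 3.18 TPM (median 2.13) in HFpEF+Veh, from 2.35 to 3.59 TPM (median 2.95) in HFpEF+TYA-018 and from 1.69 to 4.23 TPM (median 3.15) in HFpEF+SGLT2i, and it rose by a log2 fold change of 0.56 ± 0.14 (adjusted p = 0.022, edgeR) and 0.59 ± 0.14 (adjusted p = 0.021). Without V2523 the adjusted p was 0.034 for TYA-018 and 0.12 for empagliflozin. Pdk4, a kinase that switches the complex off, ran from 77.3 to 220 TPM (median 115) in HFpEF+Veh and from 138 to 385 TPM (median 213) in HFpEF+SGLT2i, and it rose by 0.86 ± 0.18 with empagliflozin (adjusted p = 0.0087, and 0.026 without V2523). With TYA-018 Pdk4 stood at 0.24 ± 0.18, and the drugs differed by -0.62 ± 0.17 (TYA-018 against empagliflozin, adjusted p = 0.10).

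Against non_failing Pdk4 rose in all 3 HFpEF groups, from 52.7 to 102 TPM (median 73.1) in non_failing, with log2 fold changes of 0.68 in HFpEF+Veh (adjusted p = 0.046, edgeR, and 0.10 without V2523), 0.92 in HFpEF+TYA-018 and 1.54 in HFpEF+SGLT2i. Me2, the NAD-dependent mitochondrial malic enzyme, fell in all 3, by 0.33, 0.36 and 0.28. In HFpEF+Veh the lactate dehydrogenase subunit Ldhb fell by 0.45 ± 0.13 (without V2523, the adjusted p was 0.024 for Ldhb and 0.021 for Me2 there), and in HFpEF+TYA-018 Ldha rose by 0.51 ± 0.12 and cytosolic isocitrate dehydrogenase Idh1 by 0.38 ± 0.09.

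Pck1, which turns oxaloacetate into phosphoenolpyruvate and is abundant in liver and kidney, was read at trace level. It ran from 0.343 to 4.53 TPM in non_failing, from 0.0219 to 0.394 TPM in 7 HFpEF+Veh libraries with 10.3 TPM in V2523, from 0 to 0.0916 TPM in HFpEF+TYA-018 and from 0.0091 to 0.142 TPM in HFpEF+SGLT2i. It was called lower with both drugs against vehicle, and without V2523 these calls were lost (adjusted p = 0.14 and 0.56, edgeR). Against non_failing, HFpEF+Veh stood at -0.12 ± 0.80 (adjusted p = 0.96) and at -3.44 without V2523 (adjusted p = 0.00090). The drug groups did not overlap non_failing, and the hepatocyte markers given above moved the same way. Their part in the Pck1 result was not tested.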

How the data were processed

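RNA of 38 left ventricles was sequenced with a stranded poly(A) kit. The authors trimmed reads, quantified transcripts with salmon (1.6.0 per the labels' processing notes) on a GRCm38 transcriptome and summed them to genes. The deposited expected counts estimate reads per gene, dividing reads that fit several genes by a model. The deposited TPM values were scaled by the authors for transcript length and over all transcripts of a library, so a change in abundant transcripts moves all others. The processing notes name hg38, which the mouse gene symbols contradict, and labels and methods differ on sex, read layout and treatment length. None of these entered a test.

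Expected counts were rounded, filtered with filterByExpr (13765 of 29564 genes kept), scaled with TMM factors and tested with edgeR 4.0.16 (R 4.3.3, quasi-likelihood F test) in 1 model of 4 groups for 6 comparisons. P-values were adjusted over all genes tested (Benjamini-Hochberg, called under 0.05). The procedure was tested on simulated data. Standard errors and 95% intervals come from the fit. Members, related genes, markers and motifs were chosen with earlier results of these data known. All 29 members are named, with full values for those called. The related genes named are among those called (some are not reported here), and values of Pdp2 and Pdk4 beyond their calls were added after values were seen, as were other members given by library. Alternatives were other scalings, no filter, a length offset, DESeq2 1.42.0, limma 3.58.1 on log2(TPM + 1), 2 groups only and libraries left out. No 2 libraries of a group were alike within counting noise (lowest chi-square per degree of freedom 17.4 in 166 pairs). Each library bears its own mouse number, and intervals cover the spread between these libraries. Unmapped columns numbered 0. Shared 31-base stretches and coordinates come from GENCODE M21.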

Additional observations from a re-analysis of the deposited data

Results flagged for a closer look

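Among 59 sets of values (each of the 29 genes and their sum in non_failing and in HFpEF+Veh, leaving out Suclg2 in HFpEF+Veh, listed at 0 throughout), 3 had 1 library farther from the rest than Dixon's 95% limit allows. Chance flags about 1 group in 20. Pcx was listed at 0 TPM in non_failing V2504, where the other 7 libraries lay between 2.77 and 5.13 TPM. Dlst was 53.9 TPM in HFpEF+Veh V2532, where the other 7 lay between 15.8 and 24.7 TPM. Suclg2 was 0.0354 TPM in non_failing V2504, where the other 7 libraries were listed at 0. Groups of 11 were not examined this way.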

How the results depend on the processing

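No paired analysis was possible because mouse numbers differ in every group. The number of genes called was 0 in the comparisons of HFpEF+Veh with non_failing and of either drug with HFpEF+Veh with other scalings, no filter, the length offset, DESeq2, limma, the 2 groups only, and with V2523 or any other single library left out. It moved under alternatives chosen after seeing the data. With the mitochondrially encoded share as covariate it was 4 in HFpEF+Veh against non_failing, 20 in HFpEF+TYA-018 and 3 in HFpEF+SGLT2i against HFpEF+Veh, and 2 in each drug group against non_failing (Me1 and Suclg1), where 6.79%, 11.4%, 2.01%, 9.54% and 7.93% of all genes were called. With the log2 library total as covariate it was 1 with TYA-018 against vehicle (Got1) and 1 against non_failing (Me1), where 2.9% and 8.71% were. Without V2571 and V2572 it was 2 with TYA-018 against vehicle (Idh3a and Sdhb), 1 with empagliflozin against vehicle (Suclg1), and 1 (Me1) and 2 (Me1 and Suclg1) against non_failing, where 3.15%, 2.33%, 8.41% and 5.99% were. With the 2 groups only, 1 gene (Me1) was called in HFpEF+TYA-018 against non_failing (7.27% of all genes). Leaving out each library in turn gave 0 to 1 genes there, with Me1 called without V2550, and 0 to 2 in HFpEF+SGLT2i against non_failing, 0 without V2507, V2509 or V2510 and 2 without V2571. The median log2 fold change of the 28 genes ranged, with 1 library left out, from -0.27 to -0.15 for HFpEF+Veh against non_failing, from 0.20 to 0.28 for TYA-018 and from 0.16 to 0.26 for empagliflozin against vehicle, with 26 to 28 and 27 to 28 of 28 genes above 0 for the drugs. Against non_failing it ran from -0.02 to 0.08 for TYA-018 and from -0.06 to 0.10 for empagliflozin, and from -0.04 to 0.07 between the drugs. Rescaled without the mitochondrially encoded genes, the summed level was 10800 TPM in non_failing, 10150 in HFpEF+Veh, 10810 in HFpEF+TYA-018 and 10870 in HFpEF+SGLT2i. Where calls moved, the cause was not tested.

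A single gene had a 95% interval of about 0.29 to each side against vehicle, larger than the median differences. Diet and L-NAME cannot be told apart in the comparisons with non_failing.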
